A study of Mus musculus with 3 samples.

Results

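Cd74, H2-Aa, H2-Ab1, H2-Eb1, H2-DMa, H2-DMb1 and Ciita are the 7 genes described here, chosen by their symbols as genes of MHC class II antigen presentation, out of 31053 genes listed in the count tables. They were followed in single tdTomato-positive cells from both hippocampi of Cx3cr1CreERT2/+; Rosa26tdTomato/+; NestinTK-eGFP/+ mice, in which tamoxifen given at 100 mg/kg on 4 days switched on the reporter in cells that used the Cx3cr1 locus, mainly microglia and related macrophages. The mice were perfused with PBS, myelin was depleted magnetically, viable reporter-positive cells were sorted by flow cytometry, and droplet libraries (10x Genomics) were made. The labels describe 12 animals, 6 of each sex, in 3 sequencing runs of a single group. Every animal carried the same alleles, the NestinTK-eGFP transgene included, and received tamoxifen, so there was no untreated or other genotype to compare with, and the age of the animals is not used here. What could be compared is 1 population of cells with another inside each run, and the run is the replicate (n = 3). The labels do not assign animals to runs, so the p-values measure no spread between animals. Where 4 populations were compared with microglia, 1 spread was shared by all genes. A gene's own spread between the 3 libraries thus does not set those p-values.

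MHC class II molecules carry peptides from endocytosed protein to the cell surface, where CD4 T cells read them. An alpha and a beta chain (H2-Aa with H2-Ab1, and H2-Eb1 as the beta chain of the I-E molecule) assemble around the invariant chain Cd74, which blocks the peptide groove and guides the complex to endosomes; there Cd74 is cut down and H2-DMa with H2-DMb1, a non-classical pair that stays inside the cell, exchanges its last fragment for peptide. Ciita is the co-activator that switches on the class II promoters together with factors bound to their X and Y boxes. Macrophages at brain borders and dendritic cells are known for class II, while resting microglia are known for little of it.

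H2-DMa (chr17:34119541-34139101, plus strand), H2-DMb1 (chr17:34153072-34160230, plus strand), H2-Ab1 (chr17:34257689-34269419, plus strand), H2-Aa (chr17:34282744-34287823, minus strand) and H2-Eb1 (chr17:34305867-34316674, plus strand) lie in the H2 complex, by the GENCODE M21 annotation of GRCm38. Ciita is at chr16:10480059-10528418 on the plus strand. The annotation places other listed genes on the opposite strand over parts of 3 members: Brd2 over H2-DMa, Gm20513 over H2-Eb1 and Dexi over Ciita. Whether the counting used strand is not given in the sources used here, so the values of these 3 members are uncertain to that extent, as is the division of reads between H2-DMb1 and its near-identical neighbour H2-DMb2.

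The stretch of 150 bases before the start was taken from RefSeq (GRCm38.p6) for the alpha chain H2-Aa and the beta chain H2-Eb1, which were counted at nearly the same level in these cells (below); promoter windows were matched for 4 of the 7 members. The sequences run 5′ to 3′ on the gene's strand, and capitals mark the X box as searched (CTAGNAACTGATGATG) or the Y box (GATTGG, or CCAATC where it lies on the other strand). The X box letters are 16 bases that the H2-Eb1 and H2-DMb1 windows share with 1 difference, the closest match of that length between them (the first of 3 equally close stretches), with N at the difference.
H2-Aa, chr17:34287824-34287973, minus strand: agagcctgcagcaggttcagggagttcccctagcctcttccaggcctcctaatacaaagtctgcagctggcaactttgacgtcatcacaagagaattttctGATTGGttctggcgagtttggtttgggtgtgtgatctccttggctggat
H2-Eb1, chr17:34305717-34305866, plus strand: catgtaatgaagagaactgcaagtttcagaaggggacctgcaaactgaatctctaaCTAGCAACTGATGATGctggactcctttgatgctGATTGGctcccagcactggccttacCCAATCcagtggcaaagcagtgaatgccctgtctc
The Y box began 49 bases before the start in H2-Aa and 60 bases before it in H2-Eb1, where the X box began at 94 bases and a Y box on the other strand at 35. H2-DMb1 held its X box (CTAGTAACTGATGATG) from 97 bases with a Y box at 62 bases, and H2-DMa held a Y box at 199 bases in the second of its 2 windows and neither box in the other. Over both strands, the Y box was found in 5292 of 32851 RefSeq windows of 250 bases before to 50 bases after a start (16.1%). The X box letters were found in 2 of those windows (0.00609%), which are the H2-Eb1 and H2-DMb1 windows they were taken from. A match describes letters, not a site in use. Because the X box letters come from H2-Eb1 and H2-DMb1 alone, no match in H2-Aa or H2-DMa does not show that an X box is missing there.

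After cells with under 1000 UMIs (unique molecular identifiers, the tags by which each captured RNA molecule is counted a single time), under 500 genes or over 10% mitochondrial UMIs were left out, 19791 of 20376 barcodes were kept, 6993, 6720 and 6078 in runs 1, 2 and 3. Their median depth was 4425, 3438 and 3696 UMIs. Each pair of runs shared 7 or 8 barcodes. No doublet caller was run here, and cells that hold Xist together with Y-linked UMIs are counted below in its place. Cells were assigned by marker genes that include none of the 7 members, with a minimum number of markers that must each have a UMI. Microglia that met the gate for no state numbered 18825 (93.7%, 96.1% and 95.7% of the cells in runs 1, 2 and 3) and are called state-free microglia here. Microglia also met gates for a disease-associated state (224 cells, by markers such as Spp1, Lpl and Itgax), an interferon-responsive state (101 cells, by Ifit1, Ifit3 and others), a chemokine state (87 cells), and the cell cycle (67 cells). These are names of gates that may overlap, and 38 cells met 2 of them and 8 met 3. Border-associated macrophages numbered 158, choroid plexus epithelium 57, dendritic cells 38, T or NK cells 10 and monocytes 9, and no cell passed the B cell gate.

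The 7 genes fell into a widespread and a rare pattern. Transcripts of H2-DMa were found in 59.1% ± 2.31 of all cells (SD, n = 3 runs) and those of H2-DMb1 in 48.7% ± 2.43, at few UMIs per cell. Cd74 was found in 8.09% ± 0.604, H2-Ab1 in 5.35% ± 0.633, H2-Eb1 in 1.40% ± 0.505, H2-Aa in 1.37% ± 0.499 and Ciita in 0.344% ± 0.243. When every cell was thinned at random to 2000 UMIs, which left 19145 cells, H2-DMa remained in 38.4% ± 4.79, H2-DMb1 in 29.7% ± 3.35 and Cd74 in 4.81% ± 0.303.

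The total of UMIs told another order. Over the 3 runs, H2-DMa gave 21267 UMIs in 11704 cells, while Cd74, a gene of chromosome 18, gave 20951 UMIs in 1598 cells. The highest single cell held 445, 494 and 470 UMIs of Cd74 in runs 1, 2 and 3, against 15, 14 and 31 of H2-DMa and 18, 22 and 29 of H2-DMb1. H2-Aa (6711 UMIs in 269 cells) and H2-Eb1 (6456 UMIs in 275 cells) were close to each other in both counts, whereas H2-Ab1 gave 7698 UMIs in 1059 cells. Ciita, the co-activator, gave 146 UMIs in 66 cells, with at most 4, 2 and 12 in a cell.

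**Figure D1:**
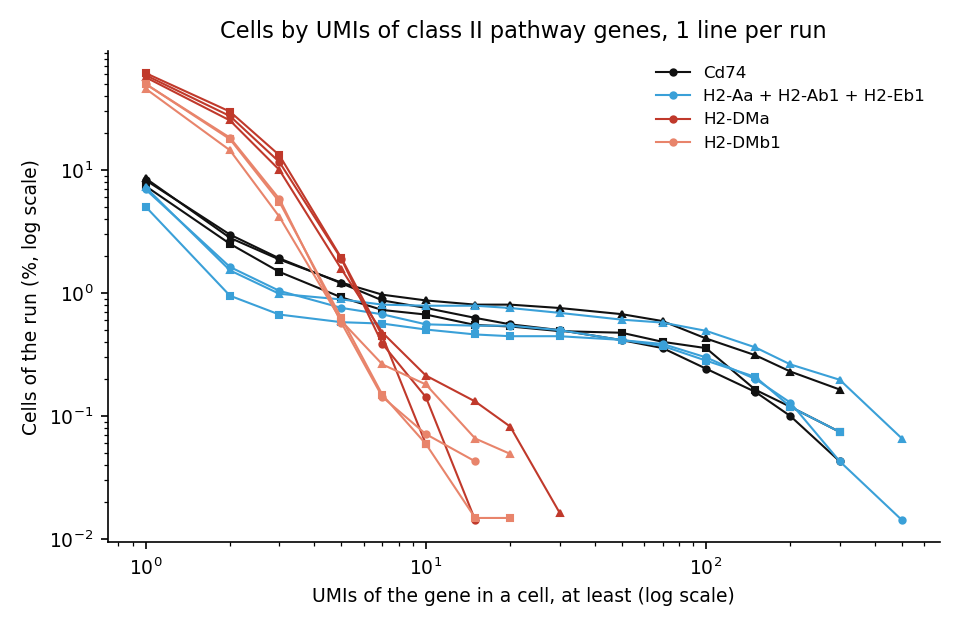
Share of the cells of each run (vertical, log scale) that held at least a given number of UMIs of Cd74, of the 3 classical chains summed, of H2-DMa or of H2-DMb1 (horizontal, log scale), with 1 line per gene and run. The H2-DMa and H2-DMb1 lines start at 45.9% to 61.4% of cells and end by 31 UMIs, while the Cd74 lines start at 7.41% to 8.57% and run on to 494 UMIs.

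The summed UMIs of the classical chains H2-Aa, H2-Ab1 and H2-Eb1 separated the cells further. No chain UMI was counted in 18525 cells (93.6%), 1 UMI in 995, 2 to 4 in 125, 5 to 9 in 25, 10 to 49 in 27, and 50 or more in 94 cells (0.475%). Few cells thus lay between the many with 0 or 1 and the few with 50 or more. Cells with at least 10 chain UMIs, called chain-high, numbered 39, 34 and 48 in runs 1, 2 and 3, or 0.558%, 0.506% and 0.790% of cells (mean 0.618% ± 0.151 SD). They held 97.2% of all H2-Aa UMIs, 97.1% of H2-Eb1, 88.4% of Ciita, 86.7% of Cd74 and 85.8% of H2-Ab1, but 4.16% of H2-DMb1 and 3.47% of H2-DMa. Just inside the threshold the lowest cells had 11, 10 and 16 chain UMIs, and just outside it the highest had 9, 8 and 9. A threshold of 5 gave 146 cells and one of 20 gave 114.

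Most cells with Cd74 had no chain transcript. Of the 1598 cells with a Cd74 UMI, 1236 had no UMI of H2-Aa, H2-Ab1 or H2-Eb1, namely 434 of 579 in run 1 (75.0%, exact binomial 95% interval 71.2 to 78.4), 400 of 498 in run 2 (80.3%, 76.6 to 83.7) and 402 of 521 in run 3 (77.2%, 73.3 to 80.7). The intervals of the 3 runs overlapped, and the mean was 77.5% ± 2.70 (SD, n = 3), or 76.8% ± 2.29 at 2000 UMIs per cell. These intervals, like the others here, cover counting error only. In the reverse direction, 904 cells had a chain UMI and no Cd74 UMI. Of those 904, 736 held H2-Ab1 alone, 86 H2-Eb1 alone and 69 H2-Aa alone. UMIs of Cd74 and all 3 chains together were counted in 143 cells.

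The chance of a chain UMI rose with the Cd74 count, as the plot of chain detection by Cd74 UMIs shows. Among cells without Cd74, a chain UMI was found in 5.33%, 3.87% and 5.78% in runs 1, 2 and 3. With a single Cd74 UMI it was 10.0%, 8.81% and 9.43% (99 of 1049 cells in all), so 1 Cd74 UMI went with a chain in few cells. The share reached 25.2% of 329 cells at 2 to 4 Cd74 UMIs, 56.5% of 69 cells at 5 to 9, and 93.4% of 151 cells at 10 or more. In the last bin the runs gave 92.5%, 91.1% and 96.2%. Deeper cells have more chances for either gene, and that part was not tested in these bins.

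**Figure D2:**
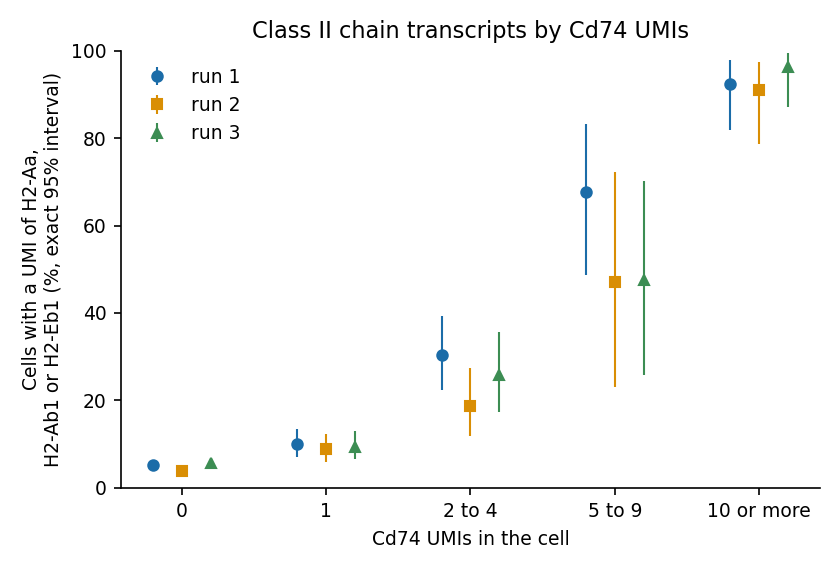
Share of cells with at least 1 UMI of H2-Aa, H2-Ab1 or H2-Eb1 (vertical, %) by the number of Cd74 UMIs in the cell (horizontal), 1 symbol per run with its exact binomial 95% interval. In each run the share is lowest without Cd74 (3.87% to 5.78%) and highest at 10 or more Cd74 UMIs (91.1% to 96.2%).

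Over all cells of a run, the log-scaled levels of the alpha chain H2-Aa and the beta chain H2-Eb1 followed each other most closely of the pairs given here, with Pearson r of 0.885, 0.951 and 0.894 in runs 1, 2 and 3. For Cd74 with H2-Aa, r was 0.701, 0.702 and 0.723, and for Cd74 with Ciita 0.318, 0.345 and 0.496. The peptide exchange pair stood apart, since r was 0.101, 0.0711 and 0.105 for Cd74 with H2-DMa and 0.0690, 0.0549 and 0.0837 for H2-DMa with H2-DMb1. Each r covers the 6078 to 6993 cells of a library, which share that library and differ in depth, and the weak values in sparse counts are no finding.

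Each of the 121 chain-high cells had UMIs of Cd74, H2-Aa, H2-Ab1 and H2-Eb1, 117 had H2-DMa, 111 had H2-DMb1 and 49 had Ciita (10, 10 and 29 in runs 1, 2 and 3). The 3 chains chose these cells, so their levels there are a description. The median chain-high cell held 122, 118 and 134.5 chain UMIs, and the highest 549, 437 and 548. Their median total depth of 5759, 5476.5 and 6602 UMIs exceeded the 4420.5, 3432.5 and 3689 of other cells. Xist and Y-linked UMIs occurred together in 7, 1 and 4 of them (17.9%, 2.94% and 8.33%), against 3.31%, 1.68% and 2.80% of other cells, and the part of doublets was not tested.

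By the marker gates, the chain-high cells were no single population. Border-associated macrophages gave 27, 16 and 11 of them in runs 1, 2 and 3, microglia 5, 6 and 15, cells that passed no gate 4, 9 and 9, dendritic cells 1, 0 and 7, monocytes 0, 1 and 2, and cells meeting more than 1 class gate 2, 2 and 4. None passed the B, T or NK, neutrophil or choroid plexus gates. Border-associated macrophages were thus the most frequent class in runs 1 and 2, and microglia in run 3. Among the 26 chain-high cells gated as microglia, 20 had P2ry12, 23 Tmem119 and 9 Ms4a7, a macrophage marker, and 12 had Ccr2, a monocyte chemokine receptor. Their pooled Cd74 level was 16926 CPM (UMIs of the gene per 1000000 UMIs), beside 16356 CPM in the 54 chain-high border-associated macrophages, 26602 CPM in the 8 dendritic cells and 36278 CPM in the 22 cells without a gate.

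Markers of border-associated macrophages, monocytes and dendritic cells were higher in chain-high cells in each run, and microglial markers were lower. Summed over the 8 microglial markers, chain-high cells had 4869, 2683 and 1497 CPM in runs 1, 2 and 3, against 13140, 16342 and 12972 in all other cells. The border-associated macrophage markers summed to 2890, 2157 and 646 CPM against 106, 33.2 and 106, the monocyte markers to 189, 704 and 1477 against 10.3, 20.8 and 11.2, and the dendritic markers to 123, 133 and 783 against 34.2, 21.9 and 32.4. The B cell markers summed to 59.8, 468 and 29.3 CPM against 53, 69.2 and 61.5, so run 2 stood highest over its other cells. At least 1 marker was seen in 116 of the 121 cells for microglia, 97 for border-associated macrophages, 57 for monocytes, 43 for dendritic cells, 28 for B cells and 0 for T or NK cells. The part of these cell types in the values was not tested.

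Border-associated macrophages, the resident macrophages of the meninges, perivascular spaces and choroid plexus, were divided in their class II transcripts. Chain-high were 27 of 72 in run 1, 16 of 34 in run 2 and 11 of 52 in run 3 (37.5%, 47.1% and 21.2%). The remaining macrophages of this gate had Cd74 at 141, 505 and 414 CPM, far below the 4263, 12482 and 6022 CPM of the whole gate. The exchange pair differed in the same direction, with H2-DMa at 561, 729 and 973 CPM in the chain-high cells and 146, 81.5 and 94.2 CPM in the others. H2-DMb1 stood at 445, 608 and 741 CPM in the chain-high cells against 95, 130 and 94.2 CPM. In each run both genes were higher in the chain-high cells, and no test was made since the members defined the split.

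Several of the gate markers compared took the opposite order in the 2 kinds of border-associated macrophages. Ms4a7, F13a1, Cbr2 and Folr2 of the same gate were not compared, and Ms4a7 had UMIs in 53 of the 54 chain-high macrophages. Lyve1, a hyaluronan receptor of perivascular macrophages, was at 92.7 CPM in the chain-high cells of run 1 and had no UMI there in runs 2 and 3, against 546, 668 and 817 CPM in the others. Mrc1, the mannose receptor, was at 663, 353 and 436 CPM against 1253, 1662 and 2518, and Cd163, a scavenger receptor, at 171, 88.4 and 58.1 CPM against 265, 293 and 681. The microglial marker P2ry12 was at 1460, 784 and 14.5 CPM in the chain-high cells against 2413, 1206 and 476 CPM. Xist and Y-linked UMIs met in 21, 1 and 3 border-associated macrophages (29.2%, 2.94% and 5.77%), most often in run 1, and the part of doublets was not tested.

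The proportions among Cd74 and the 3 chains differed between chain-high cells and cells below 10 chain UMIs. These are shares of molecules counted by their 3′ ends, so gene length does not enter. In chain-high cells Cd74 made up 45.9%, 52.6% and 47.2% of the 4 genes' UMIs (48.6% ± 3.56 SD), and H2-Ab1 made up 34.4%, 34.6% and 33.6% of the chain UMIs (34.2% ± 0.532). Each of the 3 chains thus gave about equal numbers of molecules in those cells. This held also for the 26 chain-high cells gated as microglia, with 1085 UMIs of H2-Aa, 1172 of H2-Ab1 and 1035 of H2-Eb1. In state-free microglia below 10 chain UMIs, Cd74 made up 61.2%, 65.9% and 60.1% (62.4% ± 3.09) and H2-Ab1 77.3%, 87.3% and 74.2% of the chains (79.6% ± 6.85), from 1218, 971 and 999 UMIs of the 4 genes. The 2 ranges did not overlap for either share. The removal of cells with many chain UMIs lowers the chains by its construction and so raises the share of Cd74, but it does not set which chain remains.

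Disease-associated microglia below 10 chain UMIs had a Cd74 share of 77.9%, 91.8% and 76.1%, from only 213, 97 and 67 UMIs, above that of the state-free microglia in each run. H2-Ab1 made up 59.6%, 75.0% and 50% of their chains. Border-associated macrophages below 10 chain UMIs had Cd74 shares of 66.0%, 86.1% and 77.5%, from 97, 36 and 102 UMIs. The source of the scattered UMIs in cells with few of them was not tested.

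**Figure D3:**
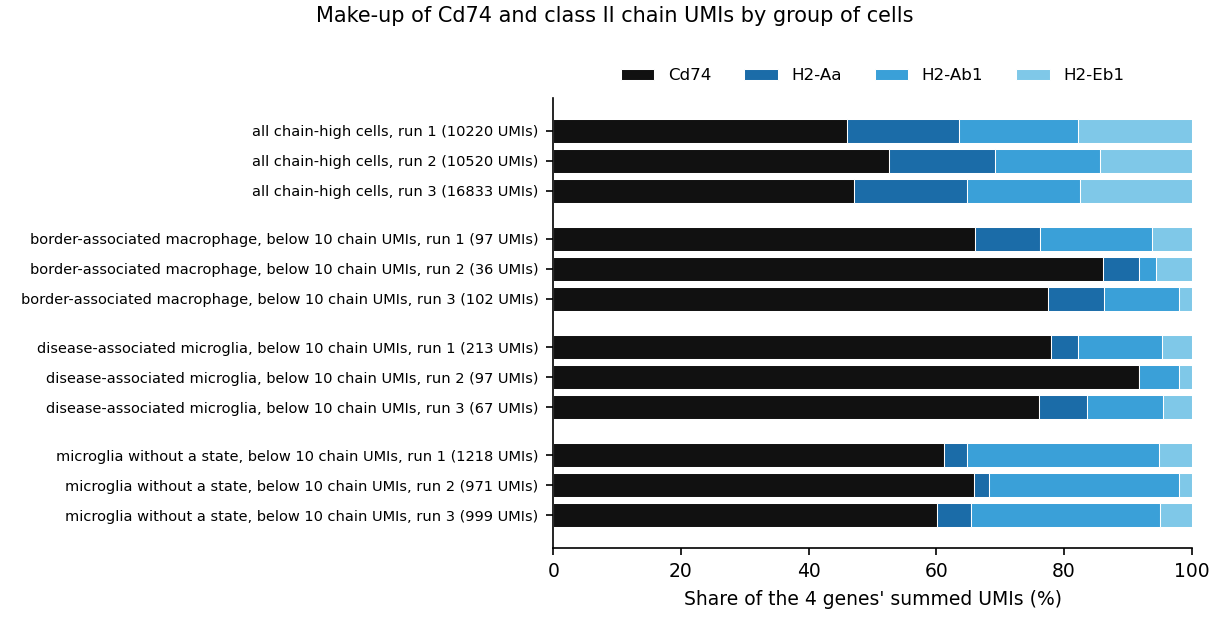
Share (%) of the summed UMIs of Cd74, H2-Aa, H2-Ab1 and H2-Eb1 that each gene contributed, 1 bar per run and group of cells. H2-Ab1 dominates the chains in microglia below 10 chain UMIs, whereas the 3 chains contribute about equally in chain-high cells.

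In state-free microglia, Cd74 was at 31.9, 45.6 and 72.9 CPM in runs 1, 2 and 3, with a UMI in 6.72%, 6.41% and 7.10% of cells. The level differed between runs more than the share of cells did, and a few cells carried the difference: without the 3, 4 and 9 chain-high cells the levels were 24.5, 27.5 and 26.6 CPM (26.2 ± 1.57 SD). H2-Ab1 was at 14.9, 21.2 and 28.9 CPM with those cells and at 12.0, 12.4 and 13.1 CPM without them. H2-Aa was at 4.16, 8.04 and 19.0 CPM, falling to 1.44, 0.946 and 2.39 CPM without the chain-high cells. H2-Eb1 was at 4.62, 7.95 and 18.7 CPM, or 2.07, 0.860 and 2.17 CPM without them. In contrast H2-DMa stood at 221, 310 and 248 CPM, in 58.6%, 61.4% and 56.7% of cells, and H2-DMb1 at 160, 208 and 166 CPM, in at least 45.5% of the cells of each run. Run 2 was the highest run for both genes of the exchange pair, and Ciita, with 5, 3 and 21 UMIs, was highest in run 3.

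Choroid plexus epithelium, which should lack class II, was taken as a measure of background, and the part of free RNA was not tested. It had a median depth of 4315, 2676.5 and 1822 UMIs, against 4379, 3420 and 3676 in state-free microglia. A Cd74 UMI was counted in 2 of its 57 cells (3.51%, exact binomial 95% interval 0.428 to 12.1), and the 6.73% of state-free microglia lay inside that interval. At 2000 UMIs per cell the shares were 2 of 38 choroid plexus cells (5.26%) and 3.81% of microglia. The 4.59% of state-free microglia with H2-Ab1 also lay inside the choroid plexus interval of 1.10 to 14.6%. With so few epithelial cells the intervals are wide, and all of these choroid plexus UMIs came from run 1. Whether the scattered Cd74 and H2-Ab1 UMIs of state-free microglia exceed background cannot be told from them. H2-Aa had no UMI in the 57 cells, which allows a share of up to 5.26%.

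H2-DMa differed more between the 2 populations. It was found in 59.0% of state-free microglia (58.3 to 59.7) and in 16 of the 57 choroid plexus cells (28.1%, 17.0 to 41.5), and the intervals did not overlap. At 2000 UMIs the shares were 38.4% and 21.1%, the latter from 8 of 38 cells. The intervals pool the cells of 3 runs, in which the choroid plexus cells numbered 26, 28 and 3, and cover counting error only. H2-DMb1 was found in 48.5% of state-free microglia (47.8 to 49.2) and 22.8% of the choroid plexus cells (12.7 to 35.8), with 29.6% and 23.7% at 2000 UMIs, the latter from 9 of 38 cells. The intervals of both genes are at unequal depth. None is given for the shares at 2000 UMIs, so a difference at equal depth was not tested. Related genes of the same locus were found in fewer cells than the exchange pair. Over all cells H2-Oa, whose product with that of H2-Ob restrains the exchange pair, was found in 19.4% ± 0.832, H2-Ob in 7.97% ± 1.60, and H2-DMb2 in 3.11% ± 0.219. H2-Eb2 gave 1 UMI in all.

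**Figure D4:**
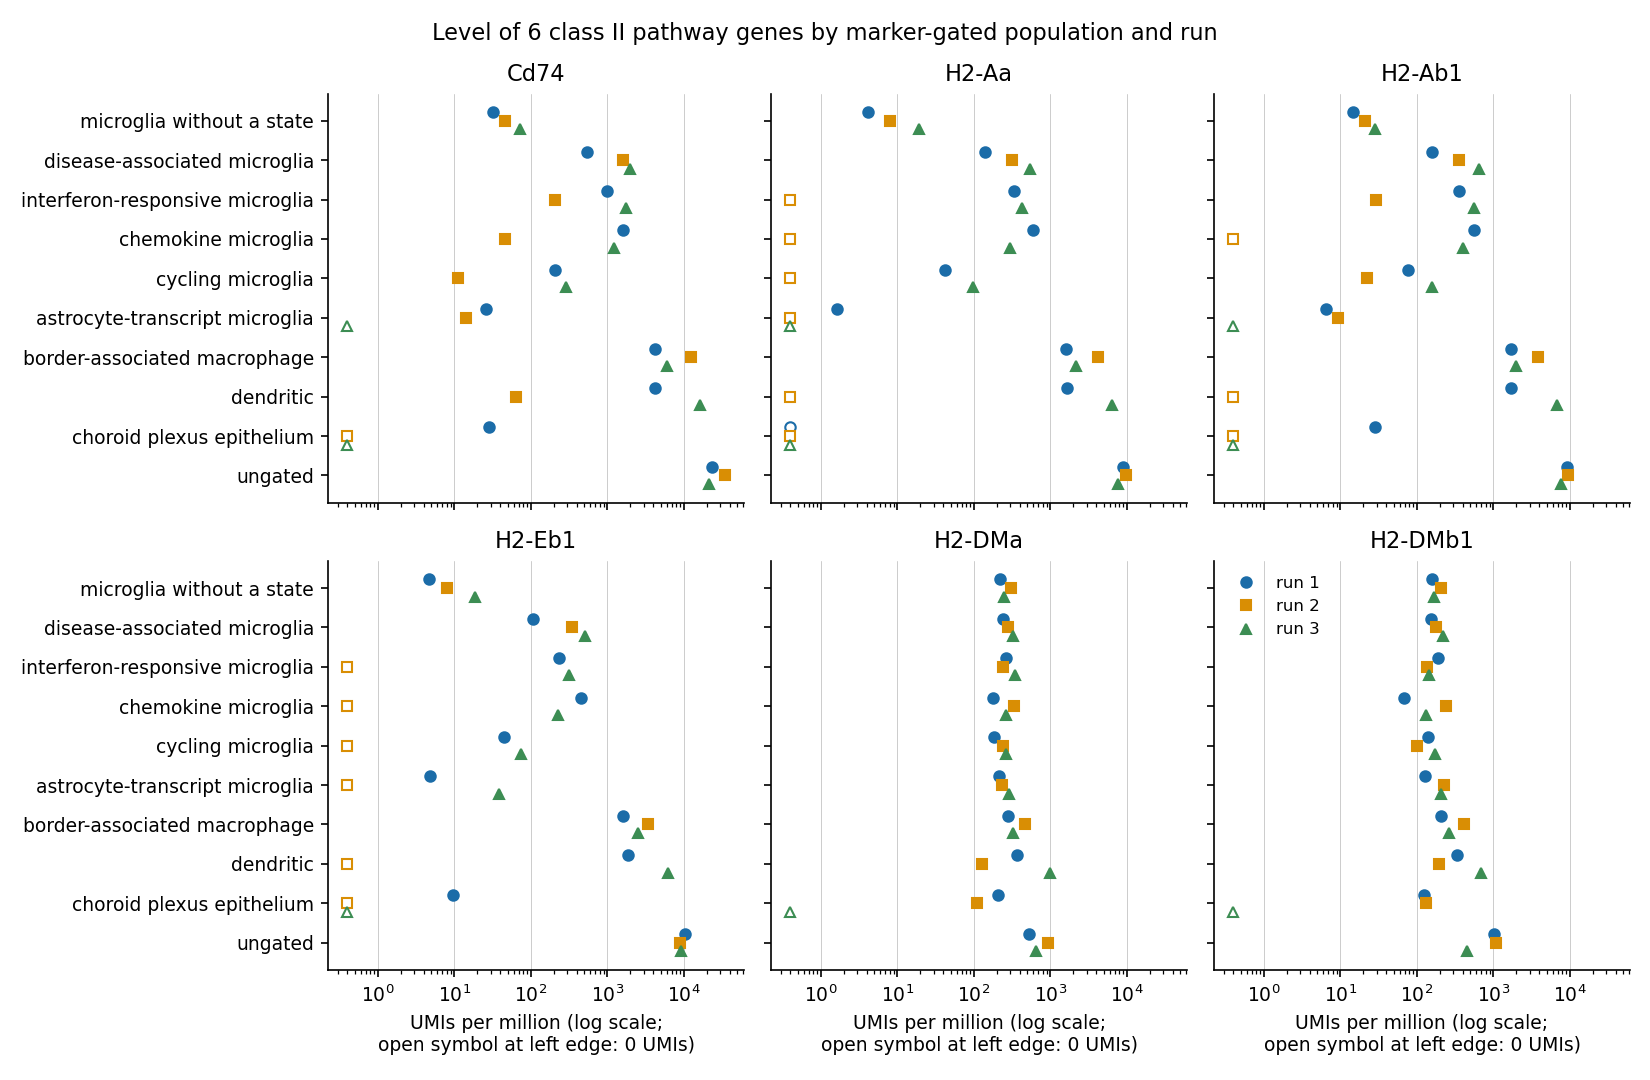
Level (horizontal, CPM on a log scale) of Cd74, H2-Aa, H2-Ab1, H2-Eb1, H2-DMa and H2-DMb1 in each marker-gated population, 1 symbol per run, with open symbols at the left edge for 0 UMIs. Cd74 and the chains span from under 10 CPM to over 10000 CPM across populations, while H2-DMa and H2-DMb1 keep near their microglial levels of 160 to 310 CPM in most.

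Outside microglia, the order of Cd74 levels was led by cells without a gate, with 23577, 34531 and 21459 CPM in 10, 17 and 15 cells of runs 1, 2 and 3. Cells that met more than 1 class gate had 1650, 20012 and 8245 CPM in 10, 4 and 8 cells, and border-associated macrophages 4263, 12482 and 6022 CPM. Cells of the dendritic gate, named for professional antigen presenters, had 4199, 65.0 and 16396 CPM in 16, 4 and 18 cells. Of these 38 cells, 11 held a Cd74 UMI and 28 had no chain UMI. Most of the gate thus lacked detected transcripts of the class II that dendritic cells are known for. Of the 447 Cd74 UMIs of the dendritic gate in run 1, 445 came from 1 cell. The ranges of these 3 groups overlapped, so their order is not set. The monocytes (2, 3 and 4 cells) are too few to place, and none of the 10 T or NK cells had a Cd74 UMI, which allows a share of up to 30%.

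Border-associated macrophages were higher than state-free microglia in all 7 members. With Cd74 at 4263, 12482 and 6022 CPM against 31.9, 45.6 and 72.9 CPM, the groups did not overlap. The invariant chain, the classical chains and Ciita differed by far more than the exchange pair. In edgeR's quasi-likelihood test on the summed counts, blocked by run and with Benjamini-Hochberg adjusted p-values over 11385 genes, the log2 difference of Cd74 was 7.32 ± 0.26 (SE, adjusted p 1.46e-168). It was 8.30 ± 0.26 for H2-Aa, from 1606, 4266 and 2197 CPM. H2-Eb1 gave 8.22 ± 0.26, from 1616, 3371 and 2547 CPM, and H2-Ab1 6.97 ± 0.24, from 1709, 3884 and 2005 CPM. All chains were lowest in run 1. Ciita was at 19.5, 39.5 and 26.9 CPM (13, 6 and 7 UMIs) and differed by 6.41 ± 0.64 (edgeR). In state-free microglia it had 0.164, 0.129 and 0.928 CPM, so it passed the filter on low counts only through the macrophages. Its test is therefore a description, though it was also called without that filter.

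For H2-DMa the macrophages had 280, 467 and 327 CPM, above the 221, 310 and 248 CPM of the microglia in the same runs, with overlapping ranges over runs. The log2 difference was 0.58 ± 0.19 (adjusted p 0.0200, edgeR). H2-DMb1, at 208, 415 and 266 CPM, differed by 0.81 ± 0.19 (adjusted p 0.000390, edgeR). Neither gene was called higher without the chain-high cells. That removal took 54 of 158 macrophages but 16 of 18825 state-free microglia, picked by the chains. Since H2-DMa and H2-DMb1 were higher in the macrophages removed, their fall was in part set by the selection, and its p-values are a description. Without the cells of at least 10 chain UMIs in either population, an alternative chosen after seeing the data, H2-DMa was lower in the macrophages at -1.07 ± 0.26 (adjusted p 0.00116, edgeR) and H2-DMb1 gave -0.74 ± 0.27 (adjusted p 0.0649, edgeR). Cd74 still differed by 3.51 ± 0.24, H2-Aa by 4.28, H2-Eb1 by 2.99 and H2-Ab1 by 1.81. The H2-DMa call was also lost without run 2 (adjusted p 0.248, edgeR), without run 3 (0.214), without the filter on low counts (0.0520) and with 1 more marker required for the gate (log2 0.08), and that of H2-DMb1 without run 2 (0.0739) and with the added marker (log2 0.18).

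As background to these 7 of 7 higher members, 13.4% of all genes tested were called in this comparison, 8.06% higher and 5.38% lower. Ciita is among the 7 with the limit given above. The median log2 difference of the members was 6.97, against -0.10 over all genes. Among interferon gamma signalling and myeloid regulators upstream of Ciita, Irf1 (log2 1.37), a factor that binds the Ciita promoter, was higher and the receptor chain Ifngr1 (-0.55) lower. Irf1 was at 53.9, 296 and 19.2 CPM in runs 1, 2 and 3, against 34.6, 42.8 and 35.7 CPM in state-free microglia. Run 2 thus stood far above and run 3 lay lower. None of the 7 genes of the RFX, NF-Y and CREB partners of Ciita passed the test. Of 5 peptide processing genes 4 were lower, among them the lysosomal proteases Ctsd (-1.41), Ctsl (-0.87) and Lgmn (-0.81). Among 7 surface turnover and costimulation genes, the receptor Cd40 (6.74, from 20 UMIs) and Cd83 (1.62), which stabilises surface class II, were higher. Cd40 had 0.229, 0.172 and 0.265 CPM in state-free microglia, so it too passed the filter on low counts only through the macrophages. Cd83 was at 133, 829 and 131 CPM against 83.2, 114 and 79.8 CPM, with run 2 far above the others. H2-Oa was lower (-1.18 ± 0.32, adjusted p 0.00279, edgeR), and H2-Ob and H2-DMb2 did not pass the test.

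Disease-associated microglia had more Cd74 and classical chains than state-free microglia in every run, without a detected difference in the exchange pair. Cd74 was at 537, 1593 and 1968 CPM, and 52.9%, 47.2% and 60.4% of the cells held a UMI. The lowest run lay above every run of the state-free microglia. Because these cells were deeper, with medians of 7044.5, 5496 and 5848.5 UMIs, the shares were set side by side at 2000 UMIs per cell: 28.8%, 30.6% and 33.3% against 3.61%, 3.72% and 4.14%. Pooled over runs, 118 of 224 cells held Cd74 (52.7%, 45.9 to 59.4), above the choroid plexus interval. The log2 difference was 4.72 ± 0.09 (SE, edgeR). Over runs the log2 ratios were 4.03, 5.10 and 4.74 (SD 0.541), a spread that the SE does not carry.

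The chains were highest in run 3 and lowest in run 1 of the disease-associated microglia. H2-Aa was at 139, 315 and 550 CPM, a log2 difference of 5.10 ± 0.14. H2-Eb1 at 106, 341 and 512 CPM gave 4.97 ± 0.14, and H2-Ab1 at 158, 361 and 655 CPM gave 4.08 ± 0.12 (adjusted p 4.42e-238, the largest of the called members, edgeR). H2-DMa, at 242, 281 and 328 CPM, overlapped the microglial range and did not pass the test (0.17 ± 0.10, adjusted p 0.225, edgeR). H2-DMb1, at 153, 179 and 223 CPM, gave 0.08 ± 0.11 (adjusted p 0.709, edgeR). Ciita had 0, 0 and 5 UMIs and was not tested.

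These levels rested in part on 2, 2 and 4 chain-high cells, and some of those cells also met other state gates. Both of the chain-high cells in run 1, with 240 and 36 Cd74 UMIs, were interferon-responsive as well, the first of them also in the chemokine state and the second also cycling, and a cell of run 3 with 31 Cd74 UMIs was cycling as well. A single cell gave 54.3%, 63.4% and 57.8% of the population's Cd74 UMIs. Without the chain-high cells Cd74 was at 209, 226 and 193 CPM, all above the 24.5 to 27.5 CPM of state-free microglia treated in the same way, and the log2 difference was 3.07 ± 0.14 (edgeR). H2-Ab1 was then at 35.2, 15.3 and 30.3 CPM, H2-Eb1 at 12.6, 5.08 and 11.4 CPM and H2-Aa at 11.3, 0 and 19.0 CPM, with log2 differences of 1.25, 2.59 and 2.69. All 4 calls were kept. The removal limits the chains in the remaining cells but not Cd74, so the higher level left in Cd74 is in part set by its construction.

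Here 4 of 6 tested members were higher, beside 10.5% of 11401 genes called higher and 11.1% lower (21.6% in either direction), and the members' median was 4.40 against -0.08 over all genes. Among the upstream genes, Ifngr1 (-0.80) and the kinase Jak1 (-0.44) were lower. Among 5 processing genes Ctsd (0.80) and Ctsl (0.63) were higher and Lgmn (-0.21) was lower. Of 6 turnover and costimulation genes, Cd83 (2.19) was higher, and Cd80 (-2.46, from 3 UMIs), the ligase March1 (-1.05), which removes class II from the surface, and Icosl (-0.71) were lower. Creb1 (-0.47) was the single call among the 7 partners of Ciita, and none of H2-Oa, H2-Ob and H2-DMb2 was called.

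Interferon-responsive microglia varied widely between runs. Cd74 was at 982, 206 and 1777 CPM in 53, 20 and 28 cells, in which 30.2%, 25.0% and 32.1% held a UMI, or 21.2%, 15.8% and 17.9% at 2000 UMIs per cell. All runs lay above state-free microglia, and 1 cell gave 72.1%, 57.1% and 81.1% of the Cd74 UMIs. The log2 difference was 4.32 ± 0.13 (SE, adjusted p 7.12e-220, edgeR), while the ratios of the single runs were 4.90, 2.15 and 4.59. The SE is smaller than this spread because the fit used a single estimate of spread for all genes.

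H2-Aa was at 333, 0 and 424 CPM and H2-Eb1 at 236, 0 and 315 CPM. Run 2 had 0 of 102109 UMIs for each, which allows up to 29.4 CPM, so in that run a difference from the 8.04 and 7.95 CPM of state-free microglia was not detectable. H2-Ab1 was at 363, 29.4 and 556 CPM. The log2 differences were 4.89 ± 0.25, 4.40 ± 0.29 and 4.01 ± 0.18 for H2-Aa, H2-Eb1 and H2-Ab1 (largest adjusted p 1.00e-48, edgeR). H2-DMa (263, 245 and 351 CPM) gave 0.18 ± 0.15 (adjusted p 0.728, edgeR) and H2-DMb1 (192, 137 and 146 CPM) -0.04 ± 0.17 (adjusted p 0.973, edgeR).

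Runs 1 and 3 each held 2 chain-high interferon-responsive cells and run 2 none. The 2 cells of run 1 are the chain-high cells that the disease-associated gate also held there, so the run 1 levels of both states rest on them. Without the chain-high cells Cd74 was at 183, 206 and 76.8 CPM and still differed (2.63 ± 0.23), whereas H2-Eb1 no longer passed (1.55, adjusted p 0.754, edgeR). H2-Aa and H2-Ab1 still passed, but none of the 26 cells left in run 3 had a chain UMI. In run 2 a chain UMI was found in 3 of 20 cells, at most 1 in each. The H2-Aa UMIs left thus came from run 1 alone. With all cells, DESeq2 did not call H2-Aa (adjusted p 0.433) or H2-Eb1 (adjusted p 0.547). The 4 of 6 higher members stand beside 3.43% of 11165 genes called (2.71% higher and 0.717% lower), with a median of 4.16 against -0.10. Among the upstream genes Irf1 (1.67) was higher and Ifngr1 (-0.49) lower, and the intramembrane protease Sppl2a (0.60), which clears the Cd74 stub, and Icosl (0.98) were the calls among 5 processing and 6 costimulation genes. None of the 7 partners of Ciita was called. Irf1 is itself interferon-induced, as are the markers of this gate.

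Cycling microglia had 59, 1 and 35 Cd74 UMIs, or 205, 11.3 and 289 CPM in 36, 13 and 18 cells. Run 2 lay below its state-free microglia, and the other 2 runs above theirs. The log2 difference of 1.88 ± 0.21 (adjusted p 1.97e-17, edgeR) thus covers run ratios of 2.65, -1.92 and 1.97. H2-Ab1 was at 76.4, 22.7 and 157 CPM (1.97 ± 0.31), H2-Aa at 41.7, 0 and 99.2 CPM (2.33 ± 0.46) and H2-Eb1 at 45.2, 0 and 74.4 CPM (2.18 ± 0.47; adjusted p 4.95e-05, edgeR, the largest of these). Run 2 held 88248 UMIs, so its counts of 0 allow up to 34.0 CPM.

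A single chain-high cell in run 1 and another in run 3 carried much of this difference, and both also met the disease-associated gate. Without them Cd74 gave 1.00 ± 0.35 (adjusted p 0.0289, edgeR), from 82.5, 11.3 and 36.0 CPM, and none of the 3 chains passed the test. DESeq2 did not call Cd74 with all cells (adjusted p 0.686). H2-DMa, at 184, 238 and 265 CPM, gave -0.33 ± 0.18 (adjusted p 0.214, edgeR), and H2-DMb1, at 139, 102 and 174 CPM, -0.43 ± 0.20 (adjusted p 0.132, edgeR). The 4 of 6 higher members stand beside 18.8% of 11251 genes called (9.63% higher and 9.14% lower), with a median of 1.93 against -0.17. Upstream, Ifngr1 (-0.82), Ifngr2 (-0.70) and the myeloid factor Spi1 (-0.56) were lower, as were Ctsd (-0.85), Ctsl (-0.83) and Ctss (-0.57) among the proteases and March1 (-0.99) and Cd86 (-0.67) among the surface genes.

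**Figure D5:**
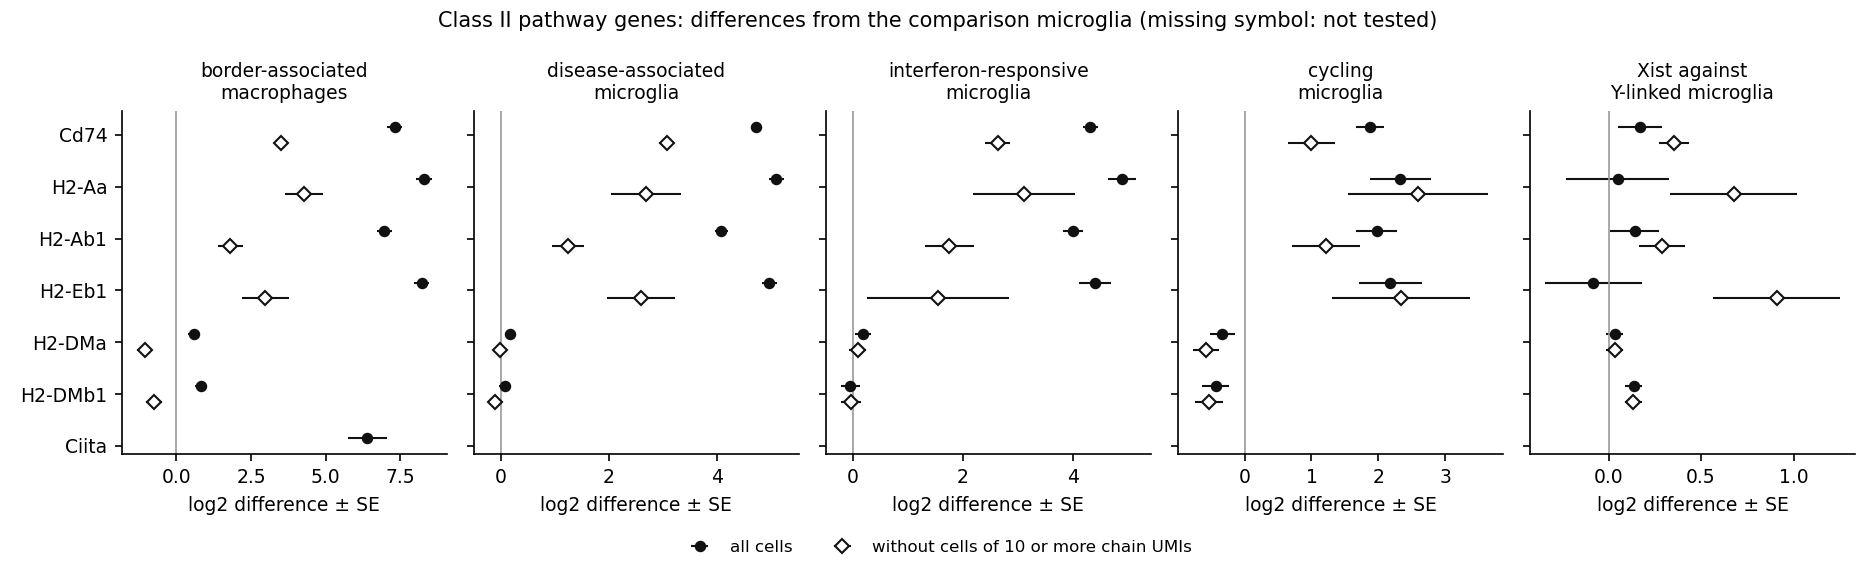
Log2 difference of each member (horizontal, points with SE from edgeR, n = 3 runs), 1 panel per comparison: 4 populations against state-free microglia and, at the right, Xist against Y-linked state-free microglia, with filled circles for all cells and open diamonds without cells of at least 10 chain UMIs. Cd74 lies to the right of 0 in the 4 populations with and without those cells, while H2-DMa in border-associated macrophages moves from 0.58 to -1.07.

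The chemokine-state microglia (25, 26 and 36 cells) were not tested. Their Cd74 was at 1616, 46.2 and 1223 CPM, of which 1 cell gave 92.3%, 33.3% and 90.0%, and at 140, 46.2 and 134 CPM without the chain-high cells. In run 1 that is the cell of 240 Cd74 UMIs which the disease-associated and interferon-responsive gates also held, and in run 3 a cell of 197 Cd74 UMIs which the interferon-responsive gate also held. Microglia with astrocyte transcripts had Cd74 at 26.1, 14.2 and 0 CPM. The 4 tested populations share the state-free microglia as their comparison group, and the states share cells, so their differences are not independent of each other.

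State-free microglia were also divided by sex-linked transcripts, into those with at least 2 Xist UMIs and no Y-linked UMI (2569, 3397 and 2441 cells) and those with a Y-linked UMI and no Xist UMI (2224, 1292 and 1574 cells). Cd74 was at 40.3, 39.8 and 82.3 CPM in the Xist cells and 20.9, 51.6 and 81.1 CPM in the Y-linked cells, higher in the Xist cells in run 1, lower in run 2 and nearly level in run 3. None of the 6 tested members passed the test, beside 0.437% of 11220 genes called (0.223% higher and 0.214% lower), and 1070 genes had an unadjusted p under 0.05. The log2 difference was 0.17 ± 0.12 for Cd74 (adjusted p 0.695, edgeR) and 0.03 ± 0.05 for H2-DMa (adjusted p 0.873, edgeR). H2-DMb1, at 165, 217 and 180 CPM against 163, 193 and 152 CPM, was higher in the Xist cells in all 3 runs by 0.14 ± 0.05, which did not pass (adjusted p 0.296, edgeR). Without the chain-high cells Cd74 passed, with 0.35 ± 0.08 (adjusted p 0.0416, edgeR).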

How the data were processed

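Hippocampal tdTomato-positive cells of 3 runs were measured by droplet RNA sequencing. The deposited files hold raw UMI counts per gene and barcode. Software versions 3.0.2 (run 1) and 3.1.0 (runs 2 and 3) stand in the headers, and the submitters' processing notes name Cell Ranger, mm10 and Seurat 4.0. CPM were computed from these counts.

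The members, marker gates, pathway lists and tests were chosen with earlier results of these data known. All 7 members are named, with at most 3 called genes per pathway list by size of change. Clec7a, a listed marker, and H2-Ea, H2-Ea-ps and Ifi30 were not analysed here. Of the list of interferon gamma signalling and myeloid regulators, not every result is reported here. UMI counts of each population were added up within a run and compared with edgeR 4.0.16 in R 4.3.3 (glmQLFit and glmQLFTest, TMM, filterByExpr, gate markers left out, Benjamini-Hochberg, threshold 0.05) for populations of at least 10 cells in each run. DESeq2 1.42.0 was an alternative. Both sums of a run come from 1 library, so the run was a block; their deviations correlated at 0.175 to 0.398 in the comparisons with state-free microglia and at 0.685 to 0.775 by sex-linked transcripts. In those 4 comparisons the prior degrees of freedom were infinite, meaning 1 spread shared by all genes. Run log2 ratios used a pseudocount of 1 CPM. On simulated counts for border-associated macrophages, 76.3% of genes changed 4-fold and 34.8% of those changed 2-fold were recovered among 11316 tested, with 5.50% false calls. Recovery was 76.1% and 59.1% for disease-associated, 56.7% and 40% for interferon-responsive, and 59.0% and 25% for cycling microglia. The counts were drawn with 1 spread for all genes and no run differences, so they do not measure false calls in the data. Shares have exact binomial 95% intervals, and 0 counts allow up to 3. The 3′ ends of transcripts are counted, so values are molecules, not read coverage. Python 3.11.15, SciPy 1.17.1 and pandas 2.3.3 were used.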

Additional observations from a re-analysis of the deposited data

How the results depend on the processing

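Without the replicate block, 911 instead of 1530 genes were called in border-associated macrophages, 878 instead of 2457 in disease-associated, 226 instead of 383 in interferon-responsive microglia and 0 instead of 49 by sex-linked transcripts (64 at an unadjusted p under 0.05), and 2 members instead of 4 were higher in cycling microglia; the block also decided the calls of H2-DMa and H2-DMb1 in border-associated macrophages (adjusted p 0.231 and 0.0868 without it, edgeR), and H2-Aa by sex-linked transcripts was -0.085 without it. DESeq2 called 1486 genes (990 higher, 496 lower, against 1192 and 1265 with edgeR) in disease-associated, 1313 (999 and 314, against 1084 and 1028) in cycling microglia, 1120 (858 and 262, against 918 and 612) in border-associated macrophages and 13 by sex-linked transcripts, and 2 members in interferon-responsive microglia. Its median over all genes was 0.38, 0.32, 0.37 and 0.53 in border-associated, disease-associated, interferon-responsive and cycling cells, against -0.10, -0.08, -0.10 and -0.17 with edgeR. A gate with 1 more marker gave 1444 genes in disease-associated microglia and H2-DMb1 at 0.25 in interferon-responsive microglia, a minimum of 1 Xist UMI gave H2-Aa at -0.00021 by sex-linked transcripts, and no filter on low counts 128 by sex-linked transcripts. The stricter cell filter called 2 members lower in cycling microglia (H2-DMa -0.56 and H2-DMb1 -0.74).

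Leaving out 1 run gave 705 to 1507 genes in border-associated macrophages, 1575 to 1949 in disease-associated, 165 to 351 in interferon-responsive and 1057 to 1704 in cycling microglia, and 27 to 84 by sex-linked transcripts. Border-associated macrophages had 967 without run 2 and the lowest count without run 3; the 3 microglial states had theirs without run 1, and the comparison by sex-linked transcripts had 84 without run 1 and 27 without run 3. Members called higher ranged from 2 to 4 in cycling microglia, where H2-Aa (adjusted p 0.0687) and H2-Eb1 (0.289) were lost without run 1 (edgeR), and members lower by sex-linked transcripts from 0 to 1 (H2-Eb1 at -0.62 without run 1). Other members that were not called changed sign when a run was left out. H2-DMb1 ranged from -0.050 to 0.18 in disease-associated and from -0.44 to 0.15 in interferon-responsive microglia. By sex-linked transcripts Cd74 ranged from -0.14 to 0.37, H2-Aa from -0.42 to 0.54, H2-Ab1 from -0.13 to 0.41, H2-Eb1 from -0.62 to 0.50 and H2-DMa from -0.026 to 0.071.

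The removal of chain-high cells was an alternative added after seeing the data. It picks cells by the chains' own counts, so the member values after it are a description. Border-associated macrophages then had 840 genes called, with 4 members higher and 1 lower, H2-DMa at -1.07 and H2-DMb1 at -0.74. H2-DMa (-0.0037) and H2-DMb1 (-0.10) changed sign in disease-associated microglia and H2-Eb1 (0.91) by sex-linked transcripts, none of them called. Cycling microglia then had 1 member higher and 1 lower, and Cd74 was the 1 member higher by sex-linked transcripts. Without cells of both Xist and Y-linked UMIs, 7, 4, 4 and 4 members were higher, as with all cells. The share of cells with a Cd74 UMI moved to 4.81% at 2000 UMIs per cell. In disease-associated microglia, each of 60 alternative values of the members kept its side of the threshold, and 57 kept their direction.

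Tested populations of 13 to 104 cells per run, runs not tied to animals, and doublets that were not removed limit these values. Chain-high cells that several state gates shared enter more than 1 comparison.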

Other observations

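Outside the members, the genes whose levels followed the summed Cd74, H2-Aa, H2-Ab1 and H2-Eb1 counts most closely over cells were Cybb, with a lowest Pearson r over the 3 runs of 0.447, Ifitm2 (0.364), Ifitm3 (0.349), Lyz2 (0.301), Ifi27l2a (0.279), Axl (0.261), Fxyd5 (0.259), H2-Q7 (0.231), Ifi204 (0.222) and Apoe (0.217), out of 10192 genes ranked. Cybb encodes the catalytic subunit of the phagocyte NADPH oxidase and Lyz2 the lysozyme of macrophages. Ifitm2, Ifitm3, Ifi27l2a and Ifi204 belong to interferon-inducible families, H2-Q7 is a class I gene of the H2 complex with near-identical neighbours, so its counts are uncertain, and Axl is also a marker of the disease-associated gate. Each r is a description over the cells of a library, which share that library and differ in depth. Cybb was counted in 102, 62 and 104 cells in runs 1, 2 and 3, a rare gene in these libraries as the class II chains were.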
